A study of Mus musculus with 36 samples.

Results

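miR-375-3p is the mature miRNA of the Mir375 gene that mouse prostate accumulates. Its row, mmu-miR-375-3p, is 1 of the 1963 miRNAs listed for 36 small RNA libraries, and it was chosen by its measured levels in those libraries, so its levels and differences are given as a description with no test. miR-375 is best known from the endocrine cells of the pancreas, where it restrains insulin secretion, and it is also made by neuroendocrine cells of other organs and by secretory epithelium, including that of the prostate. Like other miRNAs it guides Argonaute proteins to messenger RNAs that pair with its seed, near the 5′ end, and represses them.

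RNA came from the ventral and lateral lobes of male mice, matched by age and litter, of a strain background written as C56NL/6N. The 3 lines carried a wild-type Elac2 gene (WT), a deletion of Elac2 in the prostate driven by Pb-Cre (KO), or the Ala-to-Thr variant in both copies of Elac2 in every tissue (A537T). Elac2 encodes RNase Z, the enzyme that cuts off the 3′ trailer of newly made transfer RNAs. Mice of each line were taken without and with 1 copy of the TRAMP transgene, in which the probasin promoter drives the SV40 T antigens in prostate epithelium (WT-TRAMP, KO-TRAMP and A537T-TRAMP), at 10 and at 30 weeks of age, which gave 12 groups of 3 libraries. A probasin-driven Cre deletes Elac2 in epithelium alone, whereas these libraries come from whole lobes, and in bulk tissue fewer cells of a type and less of an miRNA per cell cannot be told apart. The group of every library rests on the name of the table that holds it, and Elac2 messenger RNA, which would check it, was not measured here.

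The gene lies on chromosome 1 of the mouse genome (GRCm38.p6), at chr1:74900658-74900721 on the minus strand, and its annotated hairpin is 64 bases long. In the GENCODE annotation of GRCm38 it overlapped 0 other genes. The nearest protein-coding genes were Cfap65, a cilia and flagella gene 1350 bases away, and Cryba2, a crystallin gene 7515 bases away, both on the same strand, and 0 other miRNA genes lay within 10000 bases. The hairpin is shown because the measurements concern its arms, with the 22-base 5p arm of the RefSeq table in capitals, at positions 5 to 26 of the hairpin.

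Mir375 hairpin: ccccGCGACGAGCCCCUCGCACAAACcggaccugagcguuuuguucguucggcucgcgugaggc

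Nearly all reads of the gene came from the other arm. Over the 36 libraries miR-375-3p had 1305188 reads and miR-375-5p had 29, which is 45006 reads of the 3p arm for each read of the 5p arm. A read of miR-375-5p was present in 16 libraries, with at most 5 in 1 library, so no difference between groups was detectable for that arm at this depth.

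Levels are given in RPM, the reads of an miRNA per 1000000 miRNA reads of its library, which makes columns of separately scaled tables comparable. Libraries held 4544257 to 21870210 miRNA reads, except library 35 (A537T, 10 weeks) with 655455. Even there miR-375-3p had 622 reads, so its level of 949 RPM had a 95% Wilson interval of 877 to 1026 RPM, which covers counting error only. Defining prostate epithelial miRNAs were abundant, with miR-148a-3p at 73986 to 313900 RPM and miR-200b-3p at 14902 to 47433 RPM.

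Some libraries stood apart. Skeletal muscle miRNAs (6 summed) took 97115 to 306121 RPM in WT at 10 weeks and 37162 to 136988 RPM in A537T at 10 weeks, against 1871 to 64924 RPM in the other 10 groups. Library 12 (WT-TRAMP, 30 weeks) lay between libraries 10 and 11 of its group for 139 of the 162 miRNAs with a mean of at least 100 RPM (85.8%), and a mean weighted 45% to library 10 and 55% to library 11 matched it with a median absolute difference of 0.028 on the log2 scale. The same measure was 0.062 for library 21 (WT, 30 weeks) and had a median of 0.17 over the 36 libraries. Whether library 12 is independent of the other 2 was not tested, and values without it are given beside the comparisons of TRAMP mice at 30 weeks.

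miR-375-3p was detected in every library, from 325 RPM in library 36 (A537T, 10 weeks) to 10627 RPM in library 17 (KO-TRAMP, 30 weeks), a 32.7-fold span with a median of 1843 RPM. It ranked between 14th and 98th among the miRNAs of a library. Its spread between libraries of 1 group was wide. The pooled within-group standard deviation was 0.94 on the log2 scale, against a median of 0.34 for the 298 miRNAs with a mean of at least 10 RPM, and 20 of those 298 had a wider spread.

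**Figure D1:**
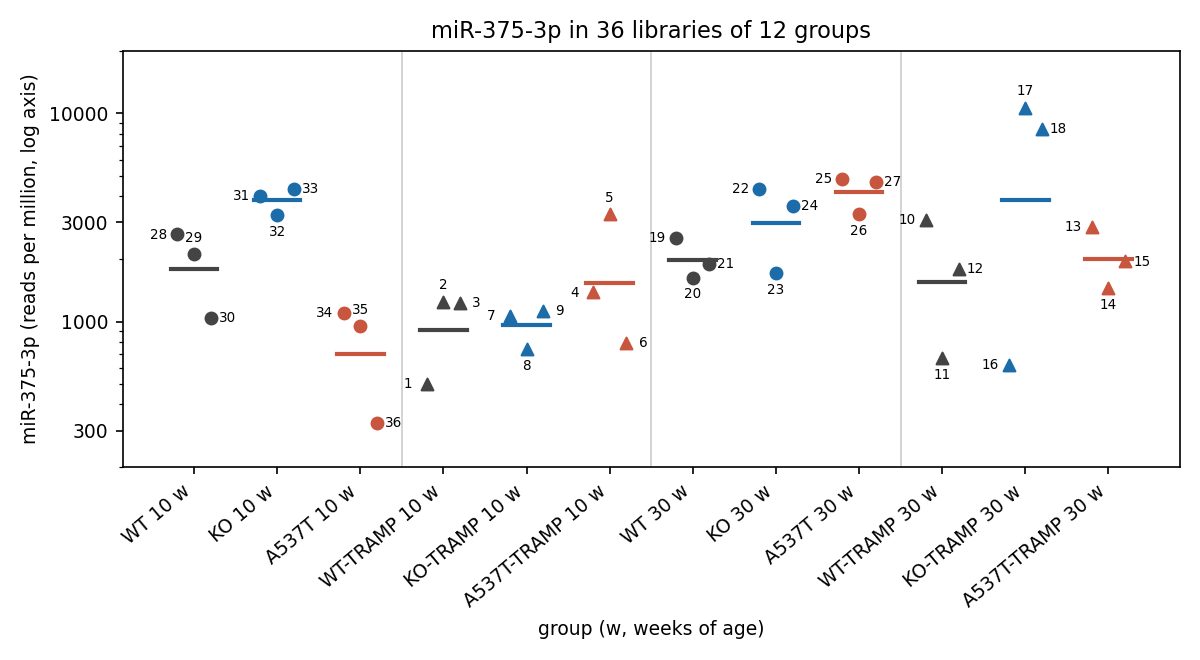
Level of miR-375-3p in each library, in RPM on a log axis, by group (w, weeks of age); each point is 1 library with its number, triangles carry TRAMP, colours mark the line (black WT, blue KO, red A537T) and bars are geometric means of 3 libraries. KO at 10 weeks and A537T at 30 weeks sit above their WT groups, and KO-TRAMP at 30 weeks splits into 1 library at 622 RPM and 2 libraries at 8443 and 10627 RPM.

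Ordered by geometric mean, the groups ran from A537T at 30 weeks (4202 RPM), KO at 10 weeks (3835), KO-TRAMP at 30 weeks (3822) and KO at 30 weeks (2983) down through A537T-TRAMP at 30 weeks (2006), WT at 30 weeks (1984), WT at 10 weeks (1793), WT-TRAMP at 30 weeks (1543) and A537T-TRAMP at 10 weeks (1530) to KO-TRAMP at 10 weeks (960), WT-TRAMP at 10 weeks (916) and A537T at 10 weeks (698). No pair of neighbours in this order was separated, as the ranges of all 11 neighbouring pairs overlapped. Of all 66 pairs of groups, 24 did not overlap. The upper end of the order held mutant groups without TRAMP together with KO-TRAMP at 30 weeks, and the lower end held A537T at 10 weeks and TRAMP groups of 10 weeks.

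At 10 weeks without TRAMP, the mutant lines lay on opposite sides of WT. The WT libraries had 2625, 2112 and 1039 RPM, a mean of 1925 ± 809 RPM (SD, n = 3). The KO libraries had 4012, 3248 and 4329 RPM (3863 ± 556), all above the highest WT library, and the log2 difference of KO from WT was 1.10 with a standard error (SE) of 0.72, or 2.14-fold higher. Ranges did not overlap for 28.5% of the 298 miRNAs in this comparison, so a gap of this kind was common. Sums of other marker lists also differed between these groups. The smooth muscle and stroma list summed to 323982 to 386345 RPM in KO and 81566 to 323036 RPM in WT. The white blood cell list summed to 2575 to 2590 RPM in KO and 991 to 2248 RPM in WT. Most of the latter sum was miR-146a-5p, at 2204, 2203 and 2202 RPM in KO and 1786, 1305 and 755 RPM in WT. Ranges of miR-142a-5p and miR-150-5p overlapped. None of the 8 stromal miRNAs passed limma's adjusted p there (6 at an unadjusted p under 0.05, with a median log2 difference of 0.74 against 0.23 over all miRNAs). Nor did any of the 6 white blood cell miRNAs (1 at an unadjusted p under 0.05, with log2 differences from -0.43 to 0.87). The part of either list in the level of miR-375-3p was not tested.

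The A537T libraries of 10 weeks had 1105, 949 and 325 RPM (793 ± 413), and the log2 difference from WT was -1.36 (SE 0.72), or 0.39-fold. Libraries 35 and 36 were below every WT library, while library 34 was above the lowest, so the ranges overlapped. Without library 36 the difference was -0.81. When skeletal muscle miRNAs were left out of the total, the WT libraries had 2907, 2607 and 1498 RPM, the KO libraries 4043, 3473 and 4361 RPM, and the A537T libraries 1280, 1035 and 338 RPM. On that scale the KO difference was 0.81 and the A537T difference -1.55.

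At 30 weeks without TRAMP both mutant lines had higher geometric means than WT. WT had 2529, 1628 and 1897 RPM (2018 ± 463). A537T had 4826, 3281 and 4687 RPM (4264 ± 855), all above the highest WT library, with a log2 difference of 1.08 (SE 0.72), or 2.12-fold higher. Of the 298 miRNAs, 14.8% had ranges that did not overlap in this comparison. KO had 4339, 1709 and 3582 RPM (3210 ± 1354), with library 23 inside the WT range, and its log2 difference was 0.59 (SE 0.72), less than 1 SE. White blood cell miRNAs (6 summed) were also higher in the mutant groups, at 2407 to 10918 RPM in A537T, 2526 to 3100 RPM in KO and 1769 to 2162 RPM in WT. Within A537T they did not follow miR-375-3p. Library 26 had the 10918 RPM, of which miR-146a-5p was 10283.5 RPM, and the lowest miR-375-3p of the 3 (3281 RPM). Library 27 had the 2407 RPM and 4687 RPM of miR-375-3p. The part of white blood cells in the levels of miR-375-3p was not tested.

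With TRAMP at 10 weeks the mutant lines overlapped their control. WT-TRAMP had 503, 1246 and 1226 RPM (992 ± 423) and KO-TRAMP had 1069, 737 and 1125 RPM (977 ± 209), a log2 difference of 0.07 (SE 0.72) that became -0.36 without library 1. A537T-TRAMP had 1383, 3279 and 790 RPM (1817 ± 1300), with a log2 difference of 0.74 (SE 0.72) that fell to 0.19 without library 5 and to 0.31 without library 1. KO-TRAMP and A537T-TRAMP share their WT-TRAMP libraries, as KO and A537T share WT.

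With TRAMP at 30 weeks the libraries of KO-TRAMP differed from each other by 17.1-fold, the widest span of the 12 groups. WT-TRAMP had 3070, 669 and 1788 RPM (1842 ± 1202) and A537T-TRAMP had 2855, 1452 and 1948 RPM (2085 ± 712), a log2 difference of 0.38 (SE 0.72) that was 0.49 without library 12 and -0.22 without library 11. KO-TRAMP held the highest level of the series, 10627 RPM in library 17, and the next, 8443 RPM in library 18, beside 622 RPM in library 16, below every WT-TRAMP library. Its log2 difference from WT-TRAMP was 1.31 (SE 0.72), 2.62 without library 16, 0.57 without library 17, 0.74 without library 18, 0.71 without library 11, 1.42 without library 12 and -1.31 with library 16 alone. The direction therefore rests on libraries 17 and 18.

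**Figure D2:**
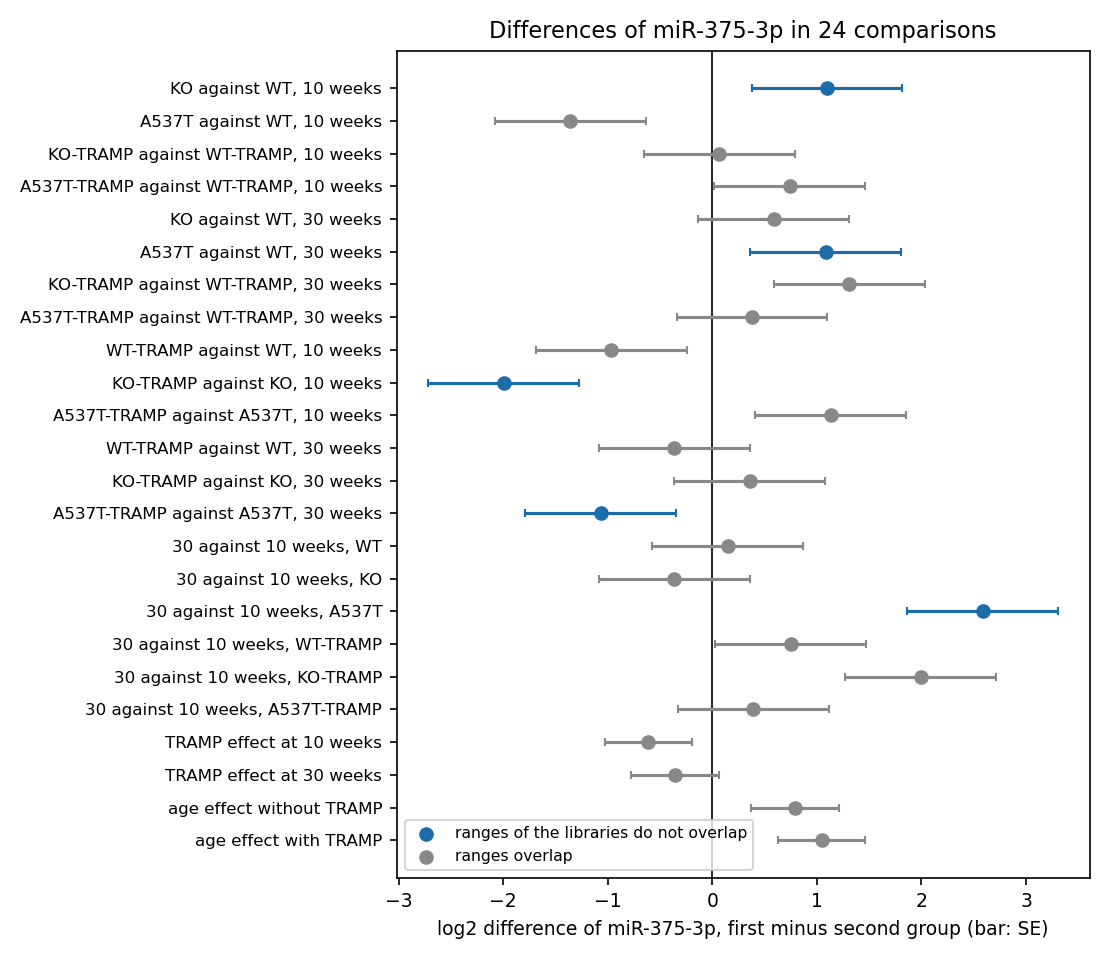
Log2 difference of miR-375-3p (first minus second group named) in 24 comparisons; points are estimates, bars are 1 standard error from a fit of all 36 libraries, and blue marks the 5 comparisons in which the ranges of the libraries do not overlap. The largest difference is 2.59, for 30 against 10 weeks in A537T.

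The TRAMP transgene was set against its absence within each line. At 10 weeks KO-TRAMP was below KO in every library, with a log2 difference of -2.0 (SE 0.72), or 0.25-fold, in a comparison where 65.4% of the 298 miRNAs did not overlap. WT-TRAMP differed from WT by -0.97 and overlapped it, and A537T-TRAMP differed from A537T by 1.13 in the other direction and also overlapped. The first was -0.54 without library 1, and the second was 0.58 without library 5 and 0.58 without library 36. At 30 weeks A537T-TRAMP was below A537T in every library (-1.07, SE 0.72, with 31.2% of the 298 miRNAs not overlapping), while WT-TRAMP differed from WT by -0.36 and KO-TRAMP from KO by 0.36. Both of these were within 1 SE of 0, and the first became 0.24 without library 11 and -0.47 without library 12, the second -0.38 without library 17, -0.21 without library 18 and -0.04 without library 23.

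The largest of the 24 differences was one of age. A537T had 325 to 1105 RPM at 10 weeks and 3281 to 4826 RPM at 30 weeks, a log2 difference of 2.59 (SE 0.72), or 6.01-fold, with 37.9% of the 298 miRNAs not overlapping in the same comparison. It stayed between 2.04 and 2.92 when any 1 library was left out. KO-TRAMP differed by 1.99 with age but overlapped, since library 16 was below all 3 libraries of 10 weeks, and with library 16 alone at 30 weeks the difference was -0.63. WT (0.15), KO (-0.36), WT-TRAMP (0.75, and 0.64 without library 12) and A537T-TRAMP (0.39) had log2 differences of about 1 SE or less. That of WT-TRAMP was 0.26 without library 10, 0.32 without library 1 and 1.35 without library 11. That of WT became -0.25 without library 30 and -0.03 without library 19, that of KO 0.04 without library 23, and that of A537T-TRAMP -0.09 without library 6.

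Averaged over the 3 lines, with 9 libraries on each side, TRAMP was accompanied by a log2 difference of -0.61 (SE 0.42) at 10 weeks and -0.36 (SE 0.42) at 30 weeks, and 30 against 10 weeks by 0.79 (SE 0.42) without TRAMP and 1.04 (SE 0.42) with it. The ranges overlapped in all 4. The average at 30 weeks was 0.08 without library 16, -0.16 without library 11, -0.39 without library 12 and -1.23 without libraries 17 and 18, and the age difference with TRAMP was 1.01 without library 12 and 0.17 without libraries 17 and 18. The median of the 298 miRNAs moved as well, by -0.23, 0.02, -0.04 and 0.09 in these 4 comparisons. Relative to it miR-375-3p differed by -0.38, -0.38, 0.83 and 0.95, which another scaling of whole libraries cannot move much by construction. With edgeR the relative value for TRAMP at 30 weeks was -0.07.

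The miRNA whose pattern was most like that of miR-375-3p was miR-10b-5p, which lies among the Hoxd genes. Among the 161 other miRNAs with a mean of at least 100 RPM, its log2 level had the highest Pearson correlation over the 36 libraries (r = 0.74, Spearman rho = 0.75), and r was 0.78 without libraries 17 and 36, the 2 farthest from the median of miR-375-3p. These coefficients describe libraries that share groups, depth and a common total, and no p is attached. Next came miR-99b-5p (r = 0.62, rho = 0.70), miR-181d-5p (r = 0.59, rho = 0.52), miR-10a-5p from among the Hoxb genes (r = 0.56, rho = 0.58) and miR-143-3p, the leading miRNA of smooth muscle (r = 0.53, rho = 0.57). The lowest correlations were those of miR-181a-5p (r = -0.67, rho = -0.65), miR-196a-5p, another Hox miRNA (r = -0.62, rho = -0.74), and let-7d-3p (r = -0.58, rho = -0.57).

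The mature sequences of 7 of these 8 miRNAs were in the RefSeq table (GRCm38.p6) and are shown to compare their seeds, bases 2 to 8, in capitals. The chromosomal positions are chr2:74726074-74726096 for miR-10b-5p, chr17:17830194-17830215 for miR-99b-5p, chr11:96317186-96317208 for miR-10a-5p and chr13:48536024-48536045 for let-7d-3p, with let-7d-3p on the minus strand and the others on the plus strand. Those of miR-181d-5p, on the minus strand, and of the first of 2 listed loci each of miR-181a-5p and miR-196a-5p, on the plus strand, are chr8:84178759-84178781, chr1:137966468-137966490 and chr11:96265187-96265208.
mmu-miR-10b-5p: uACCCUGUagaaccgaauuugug
mmu-miR-10a-5p: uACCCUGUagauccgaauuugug
mmu-miR-99b-5p: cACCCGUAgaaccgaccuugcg
mmu-miR-181d-5p: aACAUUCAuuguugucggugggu
mmu-miR-181a-5p: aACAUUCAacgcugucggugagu
mmu-miR-196a-5p: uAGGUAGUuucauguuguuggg
mmu-let-7d-3p: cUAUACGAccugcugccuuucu

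miR-10a-5p and miR-10b-5p have 1 seed and differ at 1 base outside it, so reads altered at that base cannot be told apart. miR-181d-5p and miR-181a-5p also have 1 seed and differ at 4 bases, yet the first was among the highest correlations with miR-375-3p and the second had the lowest. In the miR-181 pair a shared seed thus did not go with a shared pattern.

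The likeness to miR-10b-5p was present within groups too. Of the deviations of each library from its group mean, those of miR-10b-5p (r = 0.73), miR-181d-5p (r = 0.72) and miR-143-3p (r = 0.61) followed miR-375-3p most closely. KO-TRAMP at 30 weeks had the widest span of miR-375-3p of the 12 groups, 17.1-fold, and so may weigh heavily in these coefficients. In its libraries 16, 17 and 18 miR-10b-5p (1803, 41894 and 28319 RPM) and miR-181d-5p (66.5, 984 and 651 RPM) split as miR-375-3p did. Coefficients without this group were not computed. The library with the most miR-375-3p also had the most miR-10b-5p in 8 of 12 groups, and the library with the least had the least in 7 of 12. For miR-143-3p these counts were 6 and 7. Both miRNAs were picked by their likeness in these same libraries, so the counts are a description and add no support. The other miRNAs were not counted in this way. In KO at 30 weeks, for example, miR-10b-5p was at 18937, 2694 and 14612 RPM where miR-375-3p was at 4339, 1709 and 3582. In WT at 30 weeks it went the other way, as the library with the most miR-375-3p (library 19, 2529 RPM) had the least miR-10b-5p (2356 RPM).

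**Figure D3:**
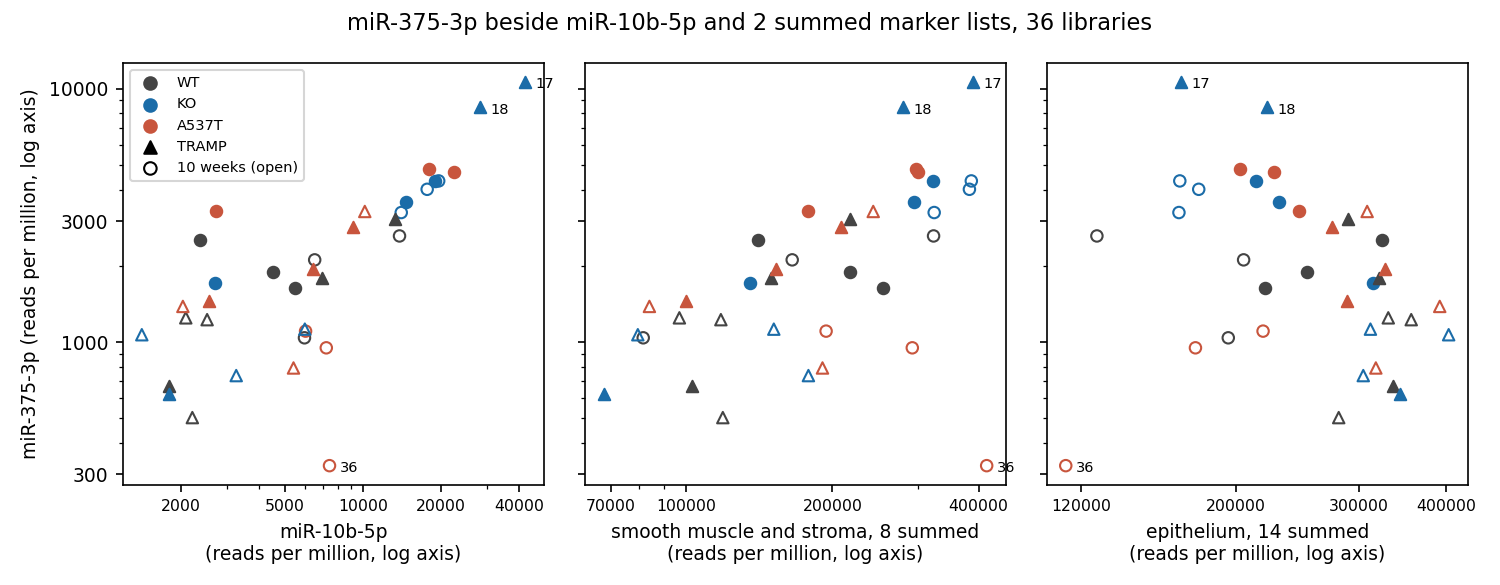
miR-375-3p against miR-10b-5p, against 8 summed smooth muscle and stroma miRNAs and against 14 summed epithelial miRNAs, all in RPM on log axes; each of the 36 points is a library, with triangles for TRAMP, open symbols for 10 weeks and colours for the line. Libraries 17 and 18 are at the upper right of the first panel, and library 36 is low in miR-375-3p while high in the smooth muscle and stroma list and low in the epithelial list.

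The summed levels of the marker lists moved unequally with miR-375-3p across libraries. The smooth muscle and stroma list, which holds miR-143-3p and miR-10b-5p, had r = 0.55 (rho = 0.59), and r = 0.70 without libraries 17 and 36. Most of that sum, with a median of 192444 RPM, is miR-143-3p, with a mean of 182650 RPM. By member, r was 0.74 for miR-10b-5p, 0.53 for miR-143-3p, 0.44 for miR-145a-3p and 0.37 for miR-145a-5p. It was 0.26 for miR-100-5p, 0.15 for miR-214-3p, 0.15 for miR-199a-3p and 0.11 for miR-199a-5p, so not all members shared the likeness. The epithelial list had r = -0.27 (rho = -0.39), and r = -0.47 without libraries 17 and 36. The neuroendocrine list had r = 0.11 but rho = -0.16, so it showed no steady direction. The red cell list had r = 0.32 (rho = 0.36), the white blood cell list 0.07 (rho = 0.07) and the skeletal muscle list -0.08 (rho = 0.12). The pancreas list of 3 miRNAs had r = 0.42 (rho = 0.50), but summed to at most 6.16 RPM in any library, and miR-122-5p of liver was at most 45.2 RPM, so the defining miRNAs of those organs were at or near 0. The log2 of total reads had r = 0.35 (rho = 0.42) over libraries and r = 0.80 over the 12 group means, and the part of depth in the order of the groups was not tested.

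A537T at 10 weeks went against the likeness with the summed stromal list. In libraries 34, 35 and 36, where miR-375-3p was at 1105, 949 and 325 RPM, the smooth muscle and stroma list was at 194096, 292063 and 415530 RPM and the epithelial list at 218758, 174975 and 114015 RPM. Library 36 thus had the lowest miR-375-3p, the lowest epithelial sum and the highest stromal sum of the series. The part of tissue make-up in the level of miR-375-3p was not tested.

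The KO-TRAMP libraries of 30 weeks differed in much more than miR-375-3p. Libraries 16, 17 and 18 had 1803, 41894 and 28319 RPM of miR-10b-5p and 53618, 330631 and 233706 RPM of miR-143-3p. Their epithelial sums were 343836, 166956 and 221896 RPM and their smooth muscle and stroma sums 67657, 389783 and 279343 RPM. Libraries 17 and 18 were thus high in miR-375-3p, miR-10b-5p and stromal miRNAs and lower in the epithelial list than library 16.

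Several neuroendocrine miRNAs were also higher in those 2 libraries than in library 16. Of the 9 on the list that reached the minimum level, 7 were higher in both libraries 17 and 18 than in library 16, against 135 of all 298 miRNAs tested (45.3%). By the same count 5 of 8 smooth muscle and stroma miRNAs, 4 of 5 of skeletal muscle, 2 of 2 of red cells, 6 of 13 of epithelium and 1 of 6 of white blood cells were higher, so the neuroendocrine list was not alone in this. miR-499-5p of skeletal muscle and miR-449a-5p of epithelium reached the minimum level only through libraries 17 and 18. Their place among the higher, here and in the 135, was thus fixed in advance. miR-129-5p, a brain miRNA, was at 1.24, 167 and 131 RPM in libraries 16, 17 and 18. miR-7b-5p, of the miR-7 family of neural and endocrine cells, was at 16.3, 452 and 258 RPM, and miR-183-5p, of a cluster expressed in sensory and neuroendocrine cells, at 2630, 5396 and 4288 RPM. Other members were nearly level, as miR-96-5p, of the same cluster as miR-183-5p, was at 1479, 1404 and 1528 RPM. miR-124-3p, a defining miRNA of neurons, was near 0, at 0.36, 0.49 and 0.51 RPM. Against the whole series, miR-7b-5p and miR-129-5p were not highest in libraries 17 and 18. miR-7b-5p reached 636 RPM in library 20 (WT, 30 weeks) and miR-129-5p 169 RPM in library 28 (WT, 10 weeks). For miR-183-5p the 5396 RPM of library 17 was the highest of the series. The part of neuroendocrine cells in the level of miR-375-3p was not tested.

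The marker lists, unlike miR-375-3p, were tested with limma over all 298 miRNAs. For the TRAMP effect at 10 weeks, 71.1% of the 298 miRNAs passed an adjusted p of 0.05, with 87 higher and 125 lower (100 and 112 under trimmed-mean, 102 and 98 under median-ratio and 70 and 143 under muscle-free scaling). Of the 9 neuroendocrine miRNAs tested, out of 12, 5 rose and 0 fell, and of the 13 epithelial miRNAs tested, out of 14, 10 rose and 2 fell (7 and 3 under muscle-free scaling, and 8 and 2 of 12 without libraries 17 and 18). All 8 smooth muscle and stroma miRNAs fell, with a median log2 difference of -0.71 against -0.23 over all miRNAs, although miR-100-5p and miR-145a-3p did not pass under trimmed-mean or median-ratio scaling. Beside these stand the miR-375-3p average of -0.61, in which the lines went both ways, the epithelial median of 0.64 and the neuroendocrine median of 0.29, over members from -1.23 to 0.79.

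Among the neuroendocrine miRNAs, miR-183-5p rose by 0.79 (SE 0.13, limma adjusted p = 6.41e-06), miR-7a-5p by 0.51 (SE 0.16, adjusted p = 0.00585), miR-96-5p by 0.49 (SE 0.12, adjusted p = 0.000759), miR-7a-1-3p by 0.35 (SE 0.15, adjusted p = 0.040) and miR-182-5p by 0.29 (SE 0.12, adjusted p = 0.0257). The last 2 did not pass when skeletal muscle miRNAs were left out of the total. The values of miR-7b-5p (-1.23), miR-129-5p (-0.97), miR-9-3p (-0.84) and miR-9-5p (-0.52), all miRNAs of neural cells, did not pass. miR-124-3p, miR-129-2-3p and miR-153-3p were below the minimum level, with means of 6.12, 7.25 and 1.83 RPM.

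The epithelial miRNAs that rose at 10 weeks were the 5 of the miR-200 family, which keeps cells epithelial by repressing ZEB factors, together with miR-148a-3p, miR-203-3p, miR-31-5p, miR-194-5p and miR-449a-5p. miR-148a-3p, the most abundant miRNA of the list, rose by 1.14 (SE 0.16, limma adjusted p = 5.07e-07) and miR-200a-3p by 0.91 (SE 0.12, adjusted p = 2.5e-07). miR-205-5p of basal epithelium fell by 0.72 and miR-34c-5p, a p53 target, by 0.81, while miR-192-5p (-0.07) did not pass. miR-34b-5p was below the minimum level. miR-449a-5p, with a mean of 10.2 RPM, fell below it without libraries 17 and 18, so it entered the tests only through them. Of the stromal list, miR-10b-5p fell by 1.61 (SE 0.54, adjusted p = 0.00946), miR-145a-5p by 1.43 and miR-143-3p by 0.95 (adjusted p = 0.00899).

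For the TRAMP effect at 30 weeks, 46.3% of the 298 miRNAs were called, 80 higher and 58 lower (76 and 55 without library 12). Trimmed-mean scaling gave 68 higher and 75 lower and median-ratio scaling 63 and 83. Of the neuroendocrine list 2 rose, miR-7a-5p by 0.61 (SE 0.16, limma adjusted p = 0.00226) and miR-96-5p by 0.41 (SE 0.12, adjusted p = 0.00563), and 7 did not pass. miR-96-5p did not pass with median-ratio scaling, and without libraries 17 and 18 the list had 2 rises and 1 fall.

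Of the epithelial list 7 rose and 2 fell at 30 weeks, with the same counts without library 12. The 13 tested include miR-449a-5p, which entered only through libraries 17 and 18 of this comparison. Without those 2 libraries 7 of 12 rose and 2 fell. miR-34c-5p rose by 1.47 (SE 0.25, limma adjusted p = 1.32e-05), against its fall at 10 weeks, and miR-203-3p, a keratinocyte differentiation miRNA, by 1.2 (SE 0.17, adjusted p = 1.1e-06). miR-205-5p fell by 1.54 (SE 0.18, adjusted p = 3.87e-08) and miR-200c-3p by 0.56. Of the stromal list the 2 arms of miR-145a fell, and miR-10b-5p was at 0.02 (SE 0.54) and did not pass. The miR-375-3p difference of -0.36 was within 1 SE of 0.

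**Figure D4:**
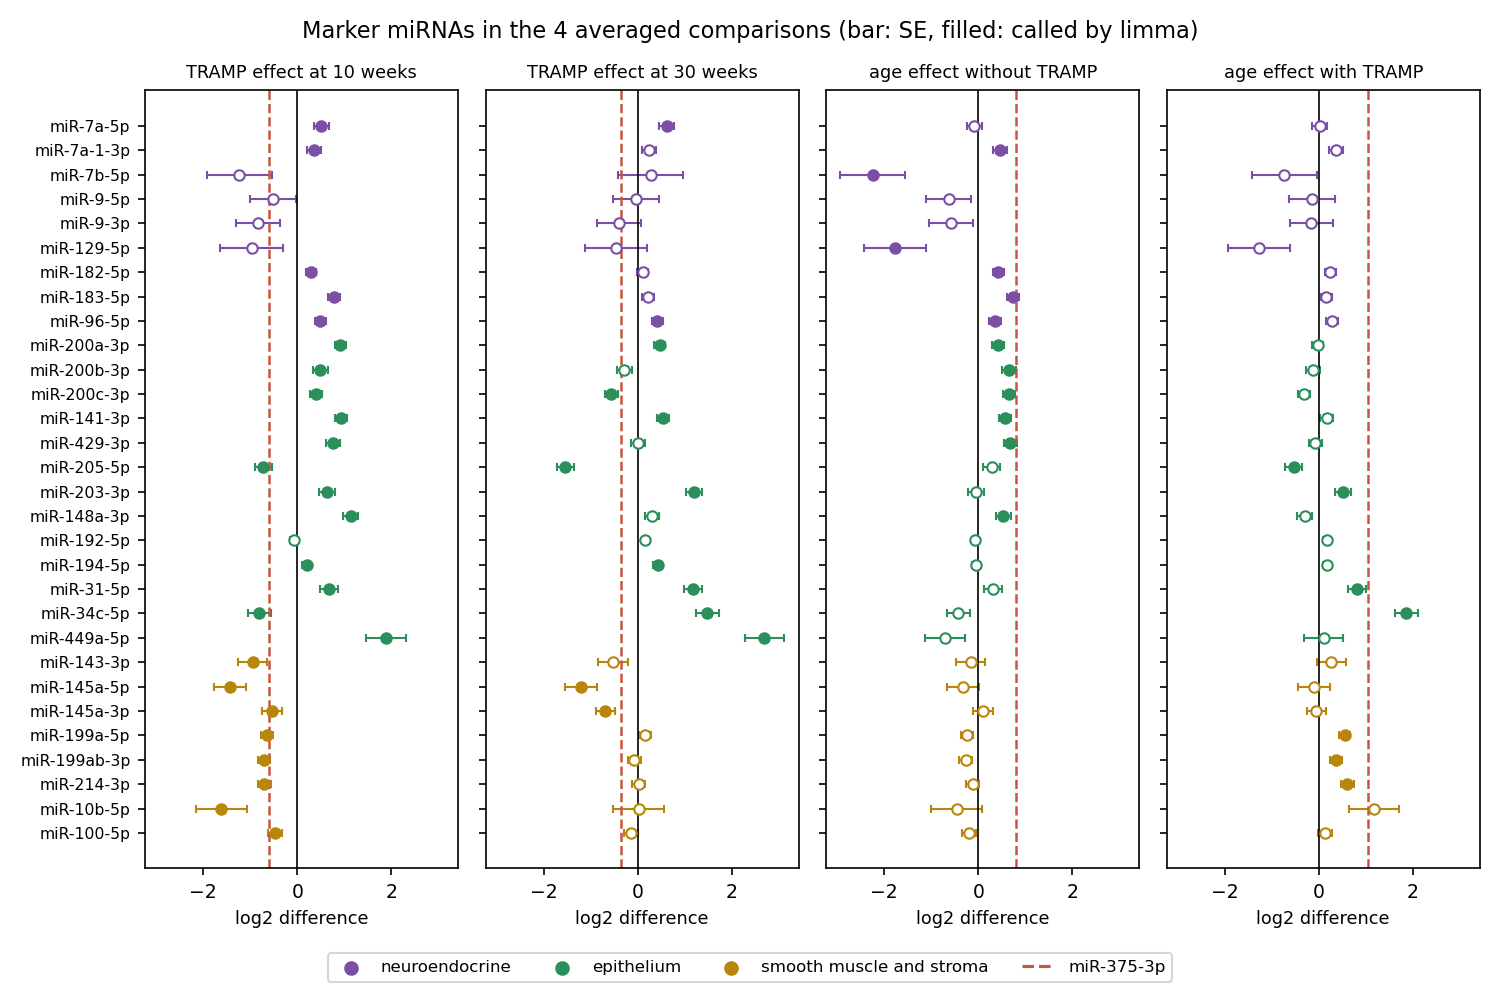
Log2 differences of the tested neuroendocrine, epithelial, and smooth muscle and stroma miRNAs in the 4 comparisons averaged over lines; bars are 1 standard error, filled points passed an adjusted p of 0.05 (limma), and the dashed line is the difference of miR-375-3p, which was not tested. At 10 weeks the TRAMP difference of miR-375-3p (-0.61) falls among the 8 stromal miRNAs, whose median was -0.71. It also falls within the neuroendocrine (-1.23 to 0.79) and epithelial (-0.81 to 1.88) ranges. With age without TRAMP its 0.79 lies above all 8 stromal miRNAs, of which the highest was 0.10.

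With age and without TRAMP, 37.2% of the 298 miRNAs were called, 50 higher and 61 lower, with 69 and 57 under trimmed-mean scaling, 96 and 56 under median-ratio scaling and 25 and 94 when skeletal muscle miRNAs were left out of the total. Of the neuroendocrine list 4 rose, miR-183-5p by 0.73 (SE 0.13, limma adjusted p = 4.75e-05), miR-7a-1-3p by 0.47, miR-182-5p by 0.43 and miR-96-5p by 0.35. The other 2 called fell, with log2 differences of -2.24 for miR-7b-5p (SE 0.69, limma adjusted p = 0.011) and -1.77 for miR-129-5p (SE 0.66, adjusted p = 0.0342). Of the 4 rises, only that of miR-183-5p passed when skeletal muscle miRNAs were left out. The epithelial list had 6 rises, the 5 of the miR-200 family and miR-148a-3p, and 0 falls, with 4 rises and 2 falls when skeletal muscle miRNAs were left out. The stromal list had 0 calls of 8 with limma (1 at an unadjusted p under 0.05, 0 by edgeR and 0 by DESeq2, and 2 falls when skeletal muscle miRNAs were left out), with a median log2 difference of -0.22 where miR-375-3p differed by 0.79.

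With age and with TRAMP, 29.2% were called, 63 higher and 24 lower (49 and 18 without library 12), with 40 and 43 under trimmed-mean scaling and 39 and 43 under median-ratio scaling. None of the 9 neuroendocrine miRNAs passed limma's adjusted p (3 at an unadjusted p under 0.05, 0 by edgeR and 0 by DESeq2), and 1 fell without libraries 17 and 18. Of the stromal list 3 rose (2 without library 12), miR-199a-5p, miR-199a-3p (counted with the identical miR-199b-3p) and miR-214-3p, all of fibroblasts, the first by 0.55 (SE 0.12, adjusted p = 0.00162). miR-10b-5p was at 1.17 (SE 0.54) and did not pass, beside 1.04 for miR-375-3p. The epithelial list had 3 rises, miR-34c-5p, miR-31-5p and miR-203-3p, and 1 fall, miR-205-5p.

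Other cell types moved with the same comparisons. The 5 skeletal muscle miRNAs tested, out of 6, all fell with TRAMP at 10 weeks and with age without TRAMP, with medians of -3.48 and -3.47. Without libraries 17 and 18, where miR-499-5p was not tested, all 4 fell in both. At 30 weeks TRAMP gave 2 falls and age with TRAMP 3, the latter becoming 0 without library 12, without libraries 17 and 18 or without a filter. The 1 call upward in each, miR-499-5p, is not counted, since that miRNA reached the minimum level only through libraries 17 and 18. The 6 white blood cell miRNAs all rose with age in TRAMP mice (5 without library 12), miR-155-5p by 1.68 (SE 0.15, limma adjusted p = 5.72e-09), and gave 3 rises and 3 falls with TRAMP at 10 weeks, 4 rises at 30 weeks and 2 rises with age without TRAMP. Of the 2 red cell entries tested, miR-451a and the merged miR-486 entry, both fell with TRAMP at 10 weeks and with age without TRAMP, 1 fell with TRAMP at 30 weeks and 0 passed with age in TRAMP mice. No pancreas or liver miRNA reached the minimum level.

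In the comparisons of mutant with control, few of the 298 miRNAs passed. For KO against WT limma called 5.7% at 10 weeks, 3 higher and 14 lower, and 1.01% at 30 weeks, 3 lower (3 higher and 5 lower under trimmed-mean scaling). For KO-TRAMP against WT-TRAMP at 30 weeks it called 4.03%, 8 higher and 4 lower (5 and 8 under trimmed-mean scaling). The other 5 comparisons had 0 calls with limma, or 0%. At an unadjusted p under 0.05 A537T had 15 at 10 weeks (0 called by edgeR and 1 by DESeq2) and 35 at 30 weeks (19 and 24). A537T-TRAMP had 22 at 10 weeks (0 and 0) and 22 at 30 weeks (0 and 2), and KO-TRAMP at 10 weeks had 15 (0 and 0). Of the list miRNAs, 4 of skeletal muscle fell in KO against WT at 10 weeks, with log2 differences of -3.55 for miR-1a-3p, -3.25 for miR-133a-3p, -3.09 for miR-133b-3p and -5.0 for miR-206-3p, which did not pass with edgeR or DESeq2. miR-499-5p of muscle was also called higher in KO-TRAMP at 30 weeks, but it reached the minimum level only through that group, with 0.799, 621 and 400 RPM in libraries 16, 17 and 18 and a mean of 7.11 RPM without libraries 17 and 18, so the call is no result. None of these 5 passed when only the 6 libraries of the table were fitted. No other list miRNA passed with limma in the 8 comparisons. Over all 298 miRNAs, unadjusted p-values under 0.05 numbered 74 and 49 in KO at 10 and 30 weeks and 61 in KO-TRAMP at 30 weeks. Summed over the 8 comparisons, the 9 neuroendocrine miRNAs tested gave 6 such values (1 called by edgeR and 2 by DESeq2). The 13 epithelial miRNAs gave 8 (2 and 3), the 8 stromal 11 (0 and 2) and the 6 of white blood cells 15 (10 and 11). The 2 of red cells gave 1 (0 and 0) and the 5 of skeletal muscle 6 (5 and 6). DESeq2 also called miR-206-3p in A537T at 30 weeks and miR-499-5p in KO at 10 weeks. The latter entered the tests only through libraries 17 and 18.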

How the data were processed

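Small RNA of 36 libraries in 12 groups of 3 was analysed. The authors joined read pairs and removed adapters with BBMerge, counted miRNAs with mirDeep2 against GRCm38 and miRBase, and summed miRNAs of identical sequence. They deposited 8 tables of 1963 miRNAs in 6 libraries each, whose values are a signal, reads divided by the DESeq2 size factor of the library. Whole reads were recovered for 100% of values (tolerance 0.001) and scaled to RPM. Tables of the authors' comparisons hold shrunken fold changes and s-values and were not used. A column in both the KO and the mutant table was the control, and the mutant table was read as A537T. Columns carry a library number and no replicate number.

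limma 3.58.1 with a variance trend was fitted in R 4.3.3 to log2(RPM + 1) of 298 miRNAs with a mean of at least 10 RPM, with 12 group means, two-sided tests, Benjamini-Hochberg adjustment over all miRNAs and a threshold of 0.05. This scale understates changes of low miRNAs. p-values measure the spread between these libraries. Named miRNAs are both arms of miR-375, the miRNAs most and least correlated with miR-375-3p and the marker lists (neuroendocrine, epithelium, smooth muscle and stroma, skeletal muscle, white blood cells, red cells, pancreas, liver). The member, lists and rule were chosen with earlier results of these data known. Alternatives were trimmed-mean (TMM), median-ratio and muscle-free scaling, a higher pseudocount (10), dropping the filter or raising it to 100 RPM, edgeR 4.0.16 quasi-likelihood and DESeq2 1.42.0 on recovered reads, the 6 libraries of a table with the authors' scaling, and leaving out each library. Leaving out libraries 17 and 18 was chosen after seeing the data. The scripts were tested on simulated data.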

Additional observations from a re-analysis of the deposited data

How the results depend on the processing

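The 24 log2 differences of miR-375-3p moved by less than its within-group standard deviation (0.94) in 221 of 224 values over the alternatives of scaling, filter, pseudocount, tool and libraries, of which 67 could not move or did not, such as those of another filter. Against this wide yardstick age with TRAMP, which went from 1.04 to 0.17 without libraries 17 and 18, also counts as within it. The 3 that moved more were those without libraries 17 and 18, where KO-TRAMP against WT-TRAMP at 30 weeks was -1.31, KO-TRAMP against KO at 30 weeks -2.26 and 30 against 10 weeks in KO-TRAMP -0.63. With library 16 left out these were 2.62, 1.67 and 3.30, and over each library left out in turn they ran from 0.57 to 2.62, from -0.38 to 1.67 and from 1.25 to 3.30. Small differences changed sign: WT-TRAMP against WT at 30 weeks was 0.02 with edgeR, 30 against 10 weeks in WT was -0.17 with muscle-free scaling, and in KO it was 0.09 with median-ratio scaling and 0.06 with DESeq2. The causes were not tested.

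Counts of called miRNAs depended on the filter by construction, as fewer or more miRNAs were tested. Without a filter TRAMP at 10 and 30 weeks gave 405 and 273, age without and with TRAMP 175 and 152, KO against WT at 10 and 30 weeks 28 and 0, A537T against WT at 10 weeks 2 and KO-TRAMP at 30 weeks 65. With a mean of at least 100 RPM these were 116, 83, 68, 47, 10 and 1, with 0 for KO-TRAMP at 30 weeks. With DESeq2 KO had 32 and 39 at 10 and 30 weeks, A537T had 1 and 24, and at 30 weeks KO-TRAMP had 43 and A537T-TRAMP had 2. With edgeR, at 30 weeks, KO had 35, A537T had 19 and KO-TRAMP had 25. Trimmed-mean scaling gave 8 and 20, and median-ratio scaling 29 and 13, in KO and A537T at 30 weeks. Muscle-free scaling gave 1 in A537T at 10 weeks, and a pseudocount of 10 gave 0 in KO and 23 in KO-TRAMP at 30 weeks. The 6 libraries of a table gave 0 for KO at both ages and for KO-TRAMP at 30 weeks. Without libraries 17 and 18 age with TRAMP gave 41, KO at 30 weeks 0, KO-TRAMP at 30 weeks 2 and A537T-TRAMP at 30 weeks 1. With each library left out in turn, counts ran from 4 to 78 (KO, 10 weeks), 0 to 1 (A537T, 10 weeks), 0 to 31 (KO, 30 weeks), 0 to 8 (A537T, 30 weeks), 1 to 63 (KO-TRAMP, 30 weeks), 0 to 1 (A537T-TRAMP, 30 weeks) and 56 to 114 (age with TRAMP). KO at 10 weeks had 78 without library 28 and 7, 5 and 4 without libraries 30, 31 and 33. KO-TRAMP at 30 weeks had 63 without library 16, 20 and 19 without libraries 19 and 23, and 5, 2, 3, 2 and 1 without libraries 10, 11, 12, 17 and 18. The 3 calls of KO at 30 weeks became 0 in most of these fits and 31 without library 19. Age with TRAMP had 56 without library 17 and 67 without library 12. Apart from the number of miRNAs or libraries in a fit, the cause was not tested.

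Of the called list miRNAs, 834 values under the alternatives stayed past the threshold, 64 did not and 0 changed direction. No paired analysis was possible because the columns carry no replicate number. Titles number the samples of a group, but no column name carries that number. Depth limits miR-375-5p and the lowest marker miRNAs, and the spread between libraries limits miR-375-3p.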
